A study of Homo sapiens and Mus musculus with 30 samples.

Results

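The 9 genes described here code for parts of the contractile apparatus of smooth muscle and its close relatives: Acta2, Tagln, Tagln2, Cnn1, Cnn2, Myl9, Tpm1, Tpm2 and Actg2. They were picked by symbol, with their polysome RNA and total RNA values in NIH3T3 in view, and are 9 of the 41128 genes in the mouse table. Their levels and trends in NIH3T3 are therefore given as a description, with no test. Of their human counterparts, 5 are among the 11342 genes in the table for HEK293A and were tested there. The study measured how the RNA on ribosomes and the total RNA of cells differ with the amount of LIN28B, an RNA-binding protein best known for blocking the maturation of let-7 microRNAs. NIH3T3, a mouse embryonic fibroblast line, and HEK293A, a human embryonic kidney line, were each profiled at 5 levels named X0, X1, X2, X3 and X4, in polysome RNA and in total RNA. X0 is the LIN28B knockout per the series design, which states that NIH3T3 followed the plan of HEK293A, and X1 to X4 make increasing amounts of the protein. Per the labels' protocols, all cells grew in DMEM with 10% FBS, transgenes were switched on by doxycycline at 10 ng/ml, and 2 further HEK293A libraries came from X0 cells given mature let-7a at 10 nM. The sources used here do not say whether a level is a clone or a pool, or whether the transgene is the human or the mouse gene.

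Smooth muscle contraction rests on a small set of proteins. Acta2 and Actg2 are the smooth muscle alpha and gamma actins, Myl9 is a regulatory light chain of the myosin that pulls on them, Tpm1 and Tpm2 are tropomyosins that lie along the actin filament, and Tagln (SM22 alpha), Tagln2, Cnn1 and Cnn2 are calponin-family proteins that bind actin. Fibroblasts make many of these proteins at low or moderate levels and much more of Acta2 and Tagln when they become myofibroblasts. Serum response factor (SRF) and its actin-sensing partners of the MRTF family switch many of these genes on through a DNA motif called the CArG box.

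Promoter sequence was at hand for human genes only. RefSeq windows on GRCh38.p14, from 250 bases before to 50 bases after a gene's start, matched 7 of the 9 genes with 11 windows, and TAGLN and MYL9 were not searched. A CArG-type motif was searched as CCNNNNNNGG with at most 1 G or C among its 6 inner bases, which reads the same on both strands. It was found in 3 of the 11 windows, and 8.13% of all 35116 windows hold it. The windows of ACTA2 (the second of its starts) and of ACTG2 hold 2 such motifs each, which 0.686% of all windows do, and the window of CNN2 holds 1. The upstream stretches with the motifs are shown because these are the windows searched that carry letters of the kind SRF is known to bind, and capitals mark the motif. They lie at chr10:88952814-88952913 on the minus strand for ACTA2, chr2:73892868-73892967 on the plus strand for ACTG2 and chr19:1026468-1026567 on the plus strand for CNN2.
ACTA2: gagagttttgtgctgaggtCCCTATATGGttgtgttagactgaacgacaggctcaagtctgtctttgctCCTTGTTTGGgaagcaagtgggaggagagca
ACTG2: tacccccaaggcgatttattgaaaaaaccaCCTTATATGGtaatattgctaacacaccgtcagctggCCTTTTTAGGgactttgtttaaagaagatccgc
CNN2: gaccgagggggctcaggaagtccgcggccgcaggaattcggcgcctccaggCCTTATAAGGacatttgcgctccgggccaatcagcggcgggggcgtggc
A match is a description of these letters and shows no binding. The other windows, of CNN1, TPM1, TPM2, TAGLN2 and the first start of ACTA2, hold no such letters.

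Values are RPKM as the authors deposited them, that is reads scaled to 1 kilobase of gene and 1e6 reads of the library. There is 1 library per level and fraction, so no replicate error exists at a level. The p-values below only weigh the slope of a straight line over the levels against the scatter of libraries around it. Both the slope and the scatter may be technical. Reads recovered from the RPKM steps came to between 1.59e+07 and 2.08e+07 in the NIH3T3 polysome libraries and between 1.61e+07 and 2.50e+07 in the NIH3T3 total RNA libraries. In HEK293A they came to between 8.37e+06 and 1.35e+07 for polysome RNA and between 3.40e+07 and 5.07e+07 for total RNA. LIN28B, the gene that was removed and put back, read 3.60, 23.0, 33.4, 81.2 and 208 RPKM at X0 to X4 in HEK293A total RNA, in the order of the labels and not at 0 at X0. In NIH3T3, mouse Lin28b had 1, 1, 1, 9 and 42 reads in total RNA at X0 to X4, so the table checks the labels of X3 and X4 only. All 10 fibroblast markers examined were found in NIH3T3. Myod1, Myog and Myf5 of skeletal muscle, Epcam of epithelium and Ptprc of leukocytes were listed at 0 in every library. Other markers of these cell types were found. In total RNA at X4, Acta1 was at 1.56, Tnnt3 at 0.916, Krt8 at 0.706, Lyz2 at 0.503 and Cd68 at 8.18 RPKM.

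The alpha actin of smooth muscle was the member that stood highest in the cells with most LIN28B. Acta2 polysome RNA was 221, 207, 265, 495 and 976 RPKM at X0, X1, X2, X3 and X4. Acta2 total RNA was 112, 107, 158, 315 and 576 RPKM at the same levels. X0 and X1 were close to each other in both fractions, and each later level was higher than the level before it. Total Acta2 RNA at X4 was 5.12-fold that at X0, with a 95% counting interval of 4.97 to 5.28, and polysome RNA was 4.41-fold higher (4.30 to 4.52). Such intervals cover counting error only. The largest step in total RNA lay between X2 and X3, at 2.00-fold. On a log2(RPKM + 0.5) scale the slope of total Acta2 RNA was 0.63 ± 0.12 per level (SE of the line, n = 5 libraries), the 6th highest of 10348 genes fitted. These are bulk samples, in which more cells making Acta2 and more Acta2 RNA per cell cannot be told apart.

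Tagln, which codes for SM22 alpha, was higher at every step, a shape that differed from that of Acta2. Tagln polysome RNA was 22.3, 50.5, 58.3, 75.3 and 105 RPKM at X0 to X4. Its total RNA was 18.3, 36.1, 51.1, 58.0 and 84.0 RPKM. The largest step for Tagln lay between X0 and X1, where Acta2 was slightly lower at X1. That step of Tagln was 1.98-fold in total RNA (1.79 to 2.18) and 2.27-fold in polysome RNA (2.07 to 2.48). At X4 total RNA was 4.60-fold (4.24 to 5.00) and polysome RNA 4.69-fold (4.32 to 5.10) that of X0, and the slope of total RNA, 0.50 ± 0.08, ranked 17th of 10348.

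Myl9, the myosin light chain, followed the shape of Acta2 at lower levels. Myl9 polysome RNA was 29.6, 27.7, 33.1, 46.6 and 72.5 RPKM at X0 to X4, and total RNA was 13.6, 11.1, 19.0, 26.1 and 37.0 RPKM. X1 lay slightly below X0 in both fractions, and X2, X3 and X4 each lay above the level before. Total Myl9 RNA at X4 was 2.73-fold (2.42 to 3.08) and polysome RNA 2.45-fold (2.23 to 2.68) that of X0, with a slope of total RNA of 0.40 ± 0.09 that ranked 42nd.

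**Figure D1:**
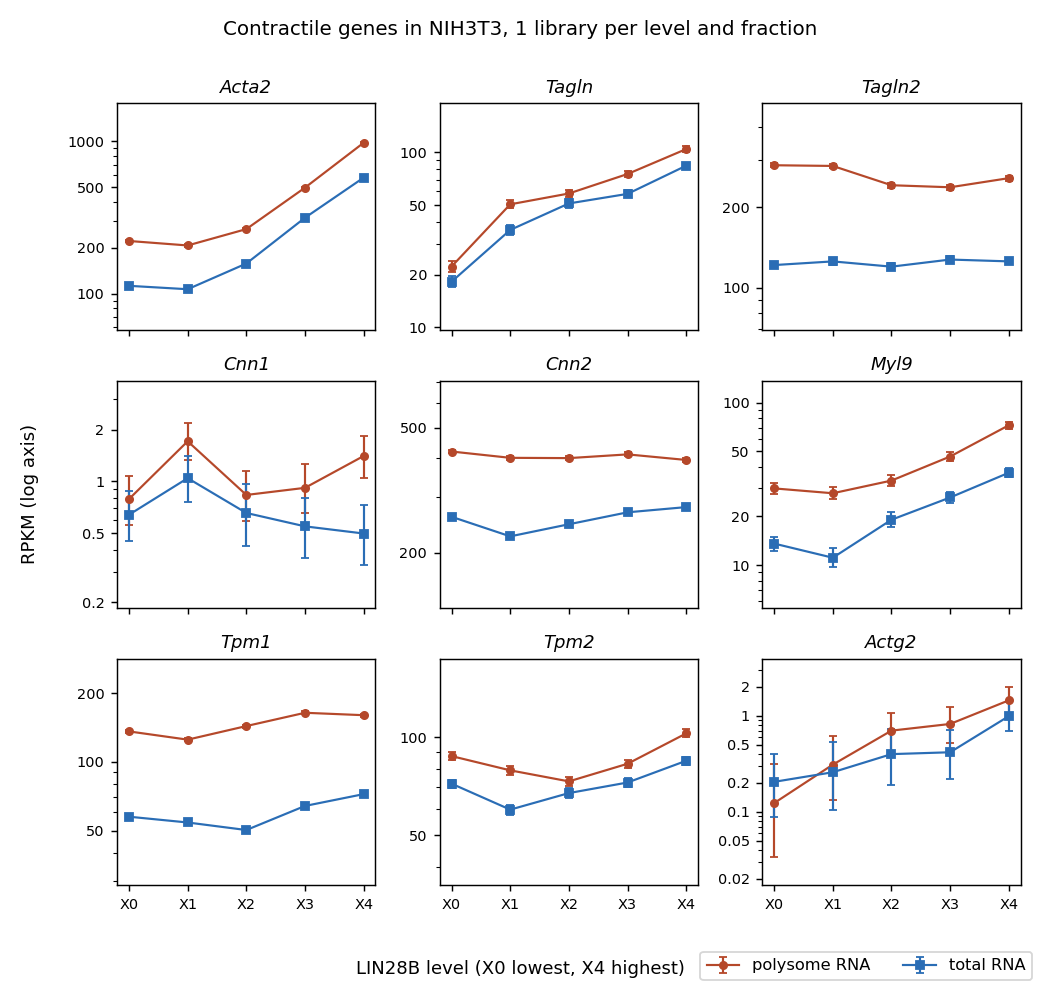
Polysome RNA (circles) and total RNA (squares) of the 9 genes in NIH3T3 in RPKM on a log axis, against the LIN28B level; each point is 1 library and bars are 95% counting intervals. Acta2, Tagln, Myl9 and Actg2 stand higher at X4 than at X0 in both fractions, while Tagln2, Cnn2, Tpm1 and Tpm2 stay within a narrow band.

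Actg2, the gamma actin of smooth muscle, was close to the limit of detection and still higher at the top level. Its polysome RNA was 0.123, 0.309, 0.700, 0.821 and 1.45 RPKM at X0 to X4, from 4, 8, 21, 23 and 36 reads. Its total RNA was 0.205, 0.258, 0.398, 0.416 and 0.990 RPKM, from 8, 7, 10, 13 and 34 reads. The counting interval at X4 lay wholly above that at X0 in both fractions, and the fold of X4 over X0 was 4.83 (2.20 to 12.1) in total RNA and 11.8 (4.22 to 45.5) in polysome RNA. Actg2 and Acta2 are near-identical in sequence, and its reads were between 0.0487% and 0.232% of those of Acta2 in each library. The sources used here do not give how the authors' counting split such reads, so the values of Actg2 are uncertain.

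Cnn1, the calponin of differentiated smooth muscle, was also barely expressed and did not follow the order of the levels. Its polysome RNA was 0.791, 1.71, 0.835, 0.918 and 1.40 RPKM at X0 to X4, and its total RNA was 0.642, 1.05, 0.657, 0.549 and 0.499 RPKM. The highest value in each fraction was at X1. Total RNA at X4 was 0.778 of that at X0, with a counting interval of 0.454 to 1.32 that includes 1. Polysome RNA at X4 was 1.78-fold that at X0, with an interval of 1.15 to 2.76 that lies above 1. Cnn1 and Actg2 had means below 1 RPKM both in total RNA and over the 2 fractions together, which kept them out of the fits of total RNA and of occupancy, so that 7 of the 9 genes were fitted.

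The tropomyosins differed far less than the actins. Tpm1 polysome RNA was 136, 125, 143, 164 and 160 RPKM at X0 to X4, and its total RNA was 57.5, 54.2, 50.3, 64.1 and 72.2 RPKM. Tpm2 polysome RNA was 87.4, 79.0, 73.1, 82.8 and 103 RPKM, and its total RNA was 71.9, 59.8, 67.3, 72.5 and 84.6 RPKM. Both had their lowest values at X1 or X2 and their highest total RNA at X4, where Tpm1 was 1.26-fold and Tpm2 1.18-fold that of X0. The slopes of total RNA were 0.09 ± 0.05 for Tpm1 and 0.07 ± 0.05 for Tpm2, which ranked 1900th and 2342nd of 10348.

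The remaining calponin-family members were abundant and nearly level in total RNA. Cnn2 polysome RNA was 420, 401, 400, 411 and 395 RPKM at X0 to X4, and its total RNA was 260, 225, 246, 269 and 279 RPKM. Tagln2 polysome RNA was 287, 286, 242, 238 and 257 RPKM, and its total RNA was 121, 125, 120, 127 and 125 RPKM. At X4 the total RNA of Cnn2 was 1.07-fold and that of Tagln2 1.03-fold that of X0, and polysome RNA was 0.940-fold and 0.895-fold in the same order. The close relatives Tagln and Tagln2 thus differed at X4 over X0 by 4.60-fold and 1.03-fold in total RNA. Slopes of total RNA were 0.05 ± 0.04 for Cnn2 and 0.01 ± 0.01 for Tagln2, which ranked 3299th and 4715th of 10348.

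These differences changed the order of the 9 genes in RPKM, which is scaled to gene length. The order thus depends on the gene lengths used, such as 6.49 kb for Tpm1 and 1.59 kb for Tagln. Counting intervals do not cover this. In total RNA at X0 the order from the top was Cnn2, Tagln2, Acta2, Tpm2, Tpm1, Tagln, Myl9, Cnn1 and Actg2. At X4 it was Acta2, Cnn2, Tagln2, Tpm2, Tagln, Tpm1, Myl9, Actg2 and Cnn1. The counting intervals of Tpm2 and Tagln overlapped at X4, as did those of no other neighbours except Cnn1 and Actg2.

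Across all 10348 genes fitted in NIH3T3 total RNA, no trend passed an adjusted p of 0.05 (limma, Benjamini-Hochberg), so percent called was 0, and 1136 genes (11%) had an unadjusted p under 0.05. Without the X0 library 19 genes passed, 10 upward and 9 downward. The members' slopes are read beside this background as sizes only. With the genes in 5 groups of like size by length, the median difference of X4 over X0 in total RNA was 0.05 on the log2 scale in the shortest group and -0.14 in the longest. Acta2, Tagln and Myl9 had differences of 2.35, 2.17 and 1.41, against a median of 0.10 in their own length group, the next to shortest. Tpm1, in the longest group, had 0.33. For X1 over X0 the medians ran wider, from 0.23 in the shortest group to -0.18 in the longest. Acta2, Tagln and Myl9 had -0.07, 0.96 and -0.28 there, against 0.11 in their own group.

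Ribosome occupancy, the log2 of polysome over total RNA with 0.5 RPKM added to each, differed much less with level than the RNA itself for Acta2, Tagln and Myl9. Occupancy of Acta2 was 0.97, 0.95, 0.75, 0.65 and 0.76 at X0 to X4, a slope of -0.07 ± 0.03 per level. Occupancy of Tagln was 0.28, 0.48, 0.19, 0.37 and 0.31, with a slope of -0.00 ± 0.04. At X4 over X0 the polysome RNA of Tagln thus stood higher by nearly the same fold as its total RNA, 4.69 against 4.60. That of Acta2 stood higher by a somewhat smaller fold than its total RNA, 4.41 against 5.12. Occupancy of Myl9 was 1.10, 1.28, 0.78, 0.83 and 0.96, and that of Tagln2 was 1.24, 1.19, 1.01, 0.90 and 1.03. In these the upper levels X2 to X4 lay below X0 and X1. The 7 genes fitted had slopes between -0.07 and -0.00, where the median of all 10952 genes fitted was -0.01, and the slope was 0.02 for Tagln without X1 and 0.07 for Tpm1 without X4. In NIH3T3 occupancy no gene passed an adjusted p of 0.05 (limma), so percent called was 0, and 552 genes (5.04%) had an unadjusted p under 0.05.

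**Figure D2:**
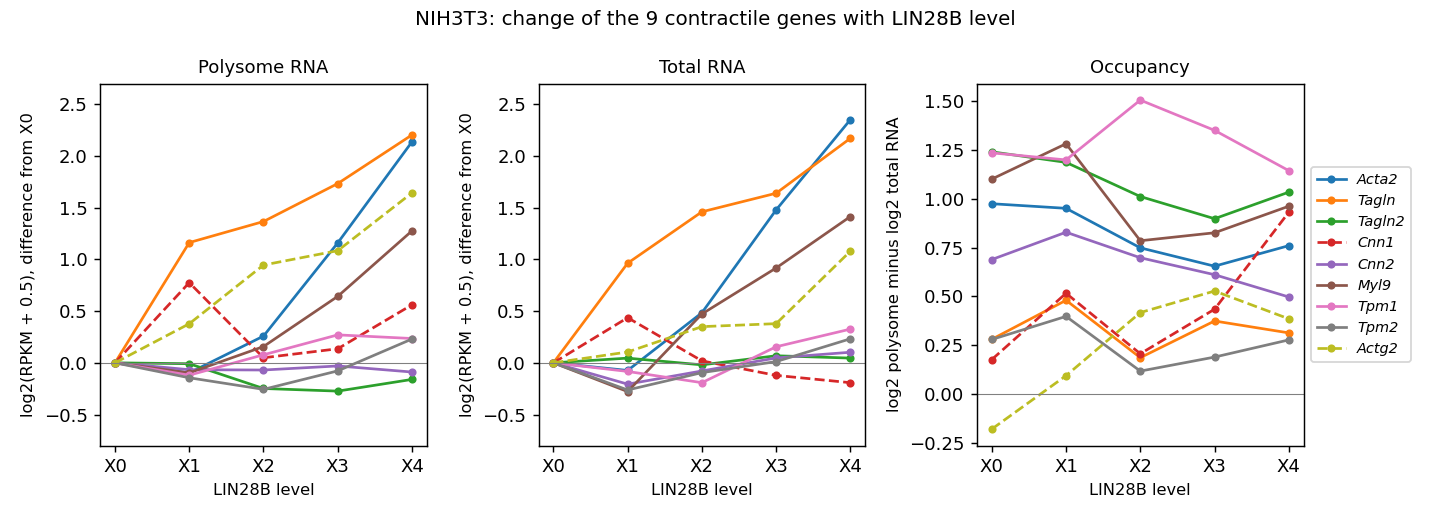
Polysome RNA (left) and total RNA (middle) of the 9 genes in NIH3T3 as the difference from X0 on a log2(RPKM + 0.5) scale, and occupancy (right) as log2 polysome minus log2 total RNA, each point 1 library; dashed lines are Cnn1 and Actg2, which had under 1 RPKM in total RNA on average. Acta2 and Tagln reach differences of 2.35 and 2.17 in total RNA at X4, while no occupancy of the 7 solid lines moves by as much as 0.5 over the levels.

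The genes whose profile over the 10 NIH3T3 libraries lay nearest to that of Acta2 were found among 6063 genes with at least 5 RPKM in both fractions, by the root mean square difference of log2 values centred within each fraction. They were Ccl9 (0.33), a chemokine, Siglecg (0.34), a sialic acid receptor of immune cells, Nid2 (0.41), a basement membrane protein, Prss23 (0.43), a serine protease, and Thbs1 (0.44), a matrix glycoprotein. Ccl9 total RNA was 5.08, 3.35, 3.43, 8.76 and 23.6 RPKM at X0 to X4, and Thbs1 total RNA was 12.6, 20.1, 21.8, 42.8 and 48.8 RPKM. Both stood higher at X3 and X4 than at X0, which follows from how they were picked. Nearest to the mean profile of the members were Tmem198b, Cyr61, Lgals3bp, Adamts2 and H6pd, at differences between 0.08 and 0.10. Cyr61, a matrix-associated signalling protein and a known SRF target, had total RNA of 26.5, 29.3, 32.9, 41.1 and 47.3 RPKM. Among the 26 actin cytoskeleton targets of SRF described below, 13 had slopes above 0. Ctgf, another of them, was at 31.9 RPKM at X0 and 20.5 RPKM at X4 in total RNA.

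Further genes of smooth muscle were mostly too low to fit in NIH3T3. Of 15 such genes 5 were abundant enough to fit in total RNA, none passed, 1 of them had an unadjusted p under 0.05 (downward), and their median slope was -0.05, against a median of -0.00 over all genes. Myh11, the smooth muscle myosin heavy chain, Myocd, the muscle partner of SRF, and Kcnmb1, a potassium channel subunit, were at or near 0 in every library. Pgm5, a protein of muscle adhesion sites, was named after its values were seen, and its total RNA was 0.177, 0.733, 0.637, 1.28 and 1.61 RPKM at X0 to X4, too low for the fit of total RNA. Of 26 actin cytoskeleton targets of SRF all were fitted in total RNA, none passed, 13 had slopes above 0 and the median slope was 0.00. An unadjusted p under 0.05 was found for 6 upward and 1 downward, against 7.33% and 3.64% of all genes, with Itga5, an integrin, at 25.2, 41.8, 45.0, 53.5 and 62.1 RPKM at X0 to X4.

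Of 14 relatives from the same protein families 10 were fitted, none passed, 1 upward and 1 downward had an unadjusted p under 0.05, and the median slope was 0.06. In NIH3T3 occupancy none of these 3 lists had a gene that passed, with 6, 26 and 10 genes fitted in the order given and 1, 1 and 0 under an unadjusted p of 0.05.

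Among the markers of other cell types, the fibroblast list had 8 of 10 slopes above 0 in total RNA, none of which passed. An unadjusted p under 0.05 was found for 5 of the 10 upward and 1 downward, against 7.33% and 3.64% of all genes. The list had a summed total RNA of 7736 to 8726 RPKM over the libraries. Col1a1, the main fibroblast collagen, was at 159, 279, 261, 394 and 448 RPKM at X0 to X4. Vim, the intermediate filament protein vimentin, was at 2994, 1430, 1468, 1498 and 1221 RPKM, and Fn1, fibronectin, at 74.8, 26.0, 27.9, 46.9 and 53.0 RPKM. The markers thus ran in both directions, Col1a1 being highest at X4 and Vim and Fn1 at X0. Summed total RNA lay between 0.856 and 2.56 RPKM for the 9 skeletal muscle markers, between 3.90 and 5.03 for the 5 pericyte markers, between 0.150 and 0.809 for the 5 epithelial, between 0.0321 and 0.185 for the 4 endothelial and between 5.28 and 11.5 for the 4 leukocyte markers. The last sum was mostly Cd68, a lysosomal protein, whose total RNA was 5.06, 11.1, 10.5, 9.47 and 8.18 RPKM. The part of fibroblast state in the values of the contractile genes was not tested.

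In HEK293A the actin, a calponin and a tropomyosin rose in total RNA with LIN28B level. Of the 5 counterparts listed, ACTA2, CNN2 and TPM1 rose (limma, Benjamini-Hochberg over 11342 genes), where 1.48% of all genes rose. The genes and the tests were chosen with earlier results of these data known. The p-values of the counterparts, here and below, and the contrasts with the shares of all genes are therefore no independent check. TAGLN, CNN1, MYL9 and ACTG2 are not among the genes of this table, which holds only genes with at least 1 RPKM in all 5 total RNA libraries.

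ACTA2 polysome RNA in HEK293A was 3.55, 4.48, 3.61, 3.24 and 3.64 RPKM at X0 to X4. Its total RNA was 4.45, 6.04, 6.66, 7.41 and 10.4 RPKM. Total RNA was higher at each level than at the one before, while polysome RNA was about level. Total ACTA2 RNA at X4 was 2.33-fold that at X0 (2.10 to 2.57), with a slope of 0.25 ± 0.03 per level (limma adjusted p = 0.00793), and polysome RNA was 1.02-fold (0.794 to 1.32). Occupancy of ACTA2 was -0.29, -0.39, -0.80, -1.08 and -1.39 and fell with a slope of -0.29 ± 0.05 (limma adjusted p = 0.00319). ACTA2 has an antisense neighbour, ACTA2-AS1, and without a stated strand setting their reads cannot be told apart.

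CNN2 showed the same pair of trends. Its polysome RNA was 2.43, 2.41, 2.67, 2.01 and 1.85 RPKM at X0 to X4, and its total RNA was 3.53, 4.30, 4.40, 6.15 and 6.93 RPKM. Total RNA at X4 was 1.97-fold that at X0 (1.78 to 2.18), with a slope of 0.22 ± 0.03 (limma adjusted p = 0.0114). Occupancy of CNN2 was -0.46, -0.72, -0.63, -1.41 and -1.66 and fell with a slope of -0.31 ± 0.06 (limma adjusted p = 0.00388).

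TPM1 rose in total RNA without a detected trend in occupancy. Its polysome RNA was 6.84, 7.20, 7.84, 10.8 and 9.40 RPKM at X0 to X4, and its total RNA was 5.12, 5.35, 5.81, 6.70 and 7.63 RPKM. Total RNA at X4 was 1.49-fold that at X0 (1.40 to 1.58), with a slope of 0.14 ± 0.02 (limma adjusted p = 0.0309), and the slope of occupancy was 0.01 ± 0.06 (limma adjusted p = 0.944). The total RNA calls of ACTA2, CNN2 and TPM1 did not hold without the X0 library (limma adjusted p = 0.117, 0.117 and 0.164), and that of TPM1 also not without X1 (0.0527) or X3 (0.0543).

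TAGLN2, by far the most abundant of the 5, had no called trend in total RNA, while its polysome RNA was lower at the upper levels. TAGLN2 polysome RNA was 374, 287, 224, 201 and 125 RPKM at X0 to X4, and its total RNA was 248, 209, 213, 228 and 219 RPKM. Polysome RNA was lower at each level than at the one before. At X4 polysome RNA was 0.335-fold that at X0 (0.322 to 0.348). Occupancy of TAGLN2 was 0.59, 0.46, 0.07, -0.18 and -0.80 and fell with a slope of -0.34 ± 0.06 (limma adjusted p = 0.00319), while total RNA had a slope of -0.02 ± 0.03 (limma adjusted p = 0.683).

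TPM2 was near the detection limit of the polysome libraries. Its polysome RNA was 0.759, 0.339, 0.324, 0.370 and 0.225 RPKM at X0 to X4, from 38, 17, 12, 22 and 10 reads. Its total RNA was 1.50, 1.36, 1.27, 1.31 and 1.42 RPKM, with a slope of -0.02 ± 0.03 (limma adjusted p = 0.833). Polysome RNA was highest at X0, but a mean under 1 RPKM over the 2 fractions together kept TPM2 out of the occupancy fit.

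**Figure D3:**
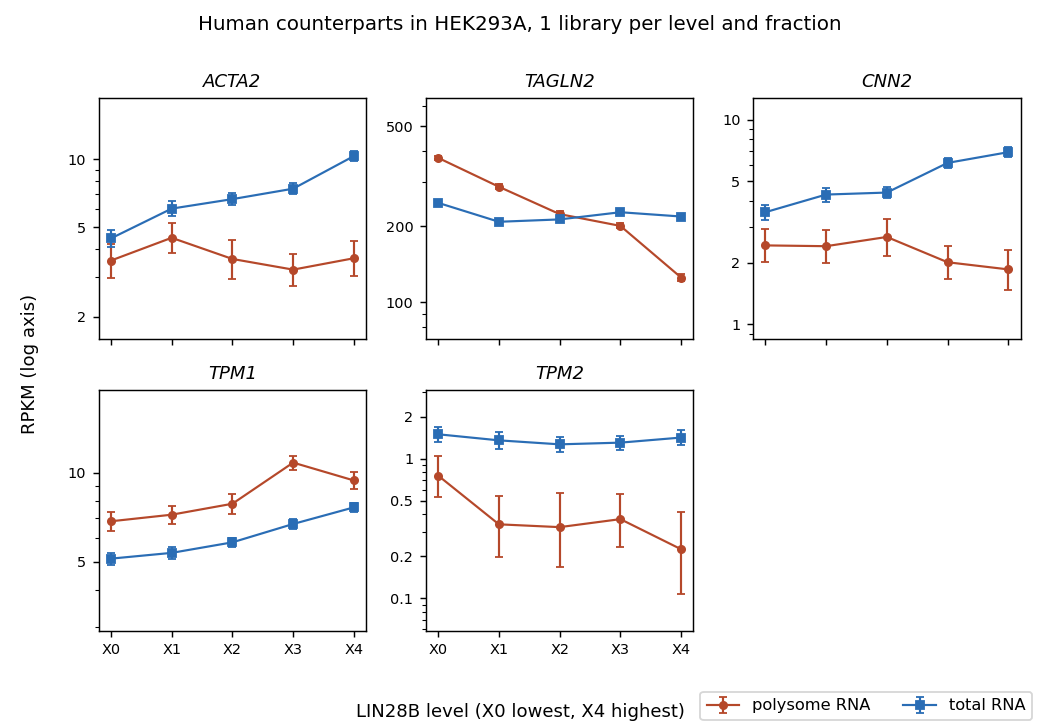
Polysome RNA (circles) and total RNA (squares) of the 5 human counterparts in HEK293A in RPKM on a log axis, against the LIN28B level; each point is 1 library and bars are 95% counting intervals. Total RNA of ACTA2, CNN2 and TPM1 climbs with level, polysome RNA of ACTA2 and CNN2 does not, and polysome RNA of TAGLN2 drops to 125 RPKM at X4, against 374 at X0.

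Occupancy thus fell for 3 of the 4 counterparts fitted, ACTA2, CNN2 and TAGLN2, and 39% of all 11125 genes fitted in HEK293A fell in occupancy. A share of 3 in 4 is read against that broad shift, in which the median slope of all genes was -0.07. With the libraries centred on their trimmed means, 26.6% of genes fell and 28.9% rose, against 39% and 19.1% without centring, and the 3 counterparts still fell, with slopes of -0.22, -0.24 and -0.28 for ACTA2, CNN2 and TAGLN2. No gene of the whole table passed in occupancy without the X4 library, where the adjusted p was 0.0842 for ACTA2 and TAGLN2 and 0.0915 for CNN2.

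In the same cells genes of the wider actin system were called in occupancy, and none in total RNA. Of 25 SRF targets of the actin cytoskeleton none passed in total RNA, 1 upward and 3 downward had an unadjusted p under 0.05, against 10% and 8.01% of all genes, and in occupancy 14 fell and 4 rose, against 39% and 19.1% of all genes, with a median slope of -0.26. ACTB, cytoplasmic beta actin, had a slope of -0.35 ± 0.06 in occupancy (limma adjusted p = 0.0032), and polysome RNA of 201 RPKM at X4, against 591 at X0. Of 5 further smooth muscle genes none passed in total RNA (1 upward unadjusted), CSRP1 and SMTN fell in occupancy and NEXN rose. Of 9 relatives none passed in total RNA (1 downward unadjusted), ACTB and ACTG1 fell in occupancy, and the myosin light chains MYL6, MYL12A and MYL12B rose. The relatives and the SRF targets share 5 genes, and none of these calls in occupancy held without X4. Of the 10 fibroblast markers 4 are in the table, 2 of them fell in total RNA, against 0.758% of all genes, and their summed total RNA was between 111 and 179 RPKM over the levels.

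**Figure D4:**
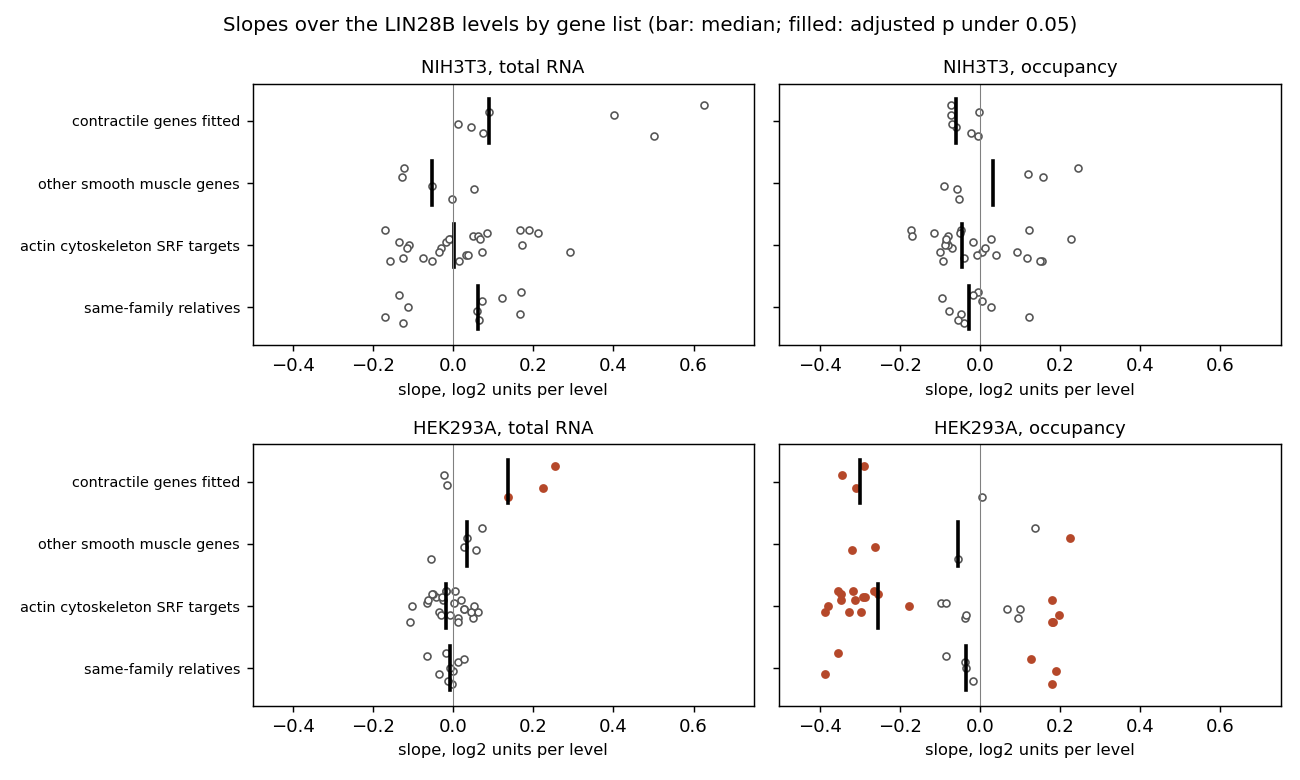
Slope per level of log2(RPKM + 0.5) in total RNA (left) and of occupancy (right) for the genes fitted in each list, in NIH3T3 (top) and HEK293A (bottom); points are genes, filled points have a limma adjusted p under 0.05 and bars are medians. In NIH3T3 the 3 points at 0.40, 0.50 and 0.63 are Myl9, Tagln and Acta2, and no point is filled. Of the contractile genes in HEK293A, 3 are filled above 0 in total RNA and 3 below 0 in occupancy. Their filling is no independent check, because these genes were chosen with earlier results of these data known.

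Set side by side, the total RNA slope of the alpha actin was 0.63 ± 0.12 in NIH3T3 and 0.25 ± 0.03 in HEK293A, at mean levels of 254 and 6.99 RPKM. Occupancy slopes were -0.07 ± 0.03 and -0.29 ± 0.02 in the same order. For Cnn2 and CNN2 the total RNA slopes were 0.05 ± 0.04 and 0.22 ± 0.03. In this paragraph each SE is that of the line in both cell lines, while an SE given with a limma p is limma's moderated SE. Whether the cell lines differ in these slopes was not tested.

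Let-7a, the microRNA that LIN28B holds back, was given to HEK293A X0 cells in 1 polysome and 1 total RNA library, which allows no test. Its mature sequence from RefSeq (GRCh38.p14) is shown with the seed, bases 2 to 8, in capitals, since this is the agent added.
let-7a-5p: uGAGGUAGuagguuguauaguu
ACTA2 was at 2.97 RPKM in polysome RNA and 2.65 RPKM in total RNA of let-7a cells, against 3.55 and 4.45 RPKM in untransfected X0 cells. TAGLN2 was at 260 and 178 RPKM in let-7a cells, against 374 and 248 RPKM in untransfected cells. TPM1 was at 5.18 and 2.93 RPKM in let-7a cells, against 6.84 and 5.12 RPKM in untransfected cells. These 3 genes were lower in both fractions with let-7a, and in total RNA their differences were -0.65, -0.48 and -0.71 on the log2(RPKM + 0.5) scale. Of the genes compared, 6.43%, 12.7% and 5.05% had a lower difference than ACTA2, TAGLN2 and TPM1.

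TPM2 and CNN2 were higher with let-7a. TPM2 was at 3.36 RPKM in polysome RNA and 4.11 RPKM in total RNA of let-7a cells, against 0.759 and 1.50 RPKM in untransfected cells, and its total RNA difference of 1.21 was above that of 99.1% of the genes compared. CNN2 was at 3.67 and 4.01 RPKM in let-7a cells, against 2.43 and 3.53 RPKM in untransfected cells. Its total RNA difference of 0.16 was above that of 65.3% of the genes compared. In all, 3 of the 5 counterparts were lower in total RNA with let-7a, and 50.1% of all genes compared were. The median difference of all genes compared was -0.00 in total RNA and 0.14 in polysome RNA. Transfected and untransfected values were deposited separately, and the labels name no mock transfection. The let-7a table alone gives the other 4 genes: TAGLN at 0.439 RPKM in polysome RNA and 0.279 RPKM in total RNA, CNN1 at 3.06 and 1.75 RPKM, and MYL9 and ACTG2 listed at 0 in both.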

How the data were processed

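Total and polysome-bound RNA were profiled in NIH3T3 and HEK293A cells at 5 LIN28B levels, and in let-7a treated HEK293A X0 cells. The authors deposited RPKM values with 1 column per level and fraction, although the series design speaks of 2 replicates, and the sources used here do not say whether these were pooled. The submitters' processing notes name STAR and cutadapt, with builds mm10 and hg19. Counting tool, annotation and strand setting: not given in the sources used here. The small RNA libraries were not analysed here, and the results for 1 of the gene lists are not reported here.

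The 9 genes, the gene lists and the tests were chosen with earlier results of these data known. Group and level came from sample titles. RPKM values fall on whole-number steps, from which reads were recovered within 0.02 of a whole number for 19090 of 21042 NIH3T3 genes above 0 and 11302 of 11342 HEK293A genes. These reads gave depth, exact Poisson intervals per value and exact binomial intervals per fold (95%), which cover counting error only, and the gene lengths. The depth of the let-7a libraries was not recovered.

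Lines over the level rank, from 0 to 4, were fitted to log2(RPKM + 0.5) of total RNA and to occupancy with limma 3.58.1 in R 4.3.3 (variance trend, Benjamini-Hochberg, threshold 0.05), over genes that averaged 1 RPKM or more over all libraries in the fit, that is both fractions together for occupancy. The pseudocount understates the change of low genes. NIH3T3 values of the 9 genes chose them and carry no p, and their SE is that of the line, with 3 residual degrees of freedom. In HEK293A an SE given with a limma p is limma's moderated SE, a different measure. The HEK293A p-values of the counterparts are descriptive, since earlier results of these data were known when the genes were chosen. The fits were tested on simulated data. Named beyond the 9 genes and their counterparts were list genes that passed in NIH3T3 (there were none) and the 5 genes nearest in profile to Acta2 and to the members' mean, which were not tested. Every other gene named was chosen after its values were seen. Alternatives were a pseudocount of 0.1 or 1, no filter or a mean of at least 5 RPKM, centred libraries and leaving out each level.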

Additional observations from a re-analysis of the deposited data

How the results depend on the processing

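In NIH3T3 total RNA no gene passed with all levels or under the other alternatives, except 19 genes without X0, a range of 0 to 19 when each level was left out. In NIH3T3 occupancy no gene passed under any alternative run. In HEK293A total RNA 254 genes passed, against 117 with a mean of at least 5 RPKM, 159 with centred libraries, and 3 (without X0) to 544 (without X4) when each level was left out. In HEK293A occupancy 6465 genes passed, and 0 (without X4) to 7233 (without X2) when each level was left out. A higher filter or a level left out also leaves fewer genes or libraries to fit. The cause of these changes was not tested. The slope of total RNA stayed between 0.50 and 0.83 for Acta2, 0.38 and 0.54 for Tagln and 0.35 and 0.55 for Myl9 over 10 alternatives each. No slope that was called changed sign. In the let-7a comparison 3 counterparts were lower in total RNA under each of the 3 alternatives. Occupancy pairs polysome and total RNA by level. No pairing by replicate was possible because the labels carry no replicate numbers and each level and fraction has 1 library. Depth limits Actg2 and Cnn1 in NIH3T3 and polysome TPM2 in HEK293A, which rest on 67 reads or fewer per library.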
